A study of Mus musculus with 2 samples.

Results

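The Meg3- and Rian-side microRNAs are 8 of the 2202 annotated microRNA genes. They lie in the imprinted Dlk1-Dio3 region of mouse chromosome 12, outside the block of microRNAs antisense to Rtl1, and were taken by their GENCODE M21 symbols: Mir770, Mir673, Mir493, Mir337, Mir540, Mir665, Mir341 and Mir370. All 8 matched exactly 1 gene row in both count tables. The rule for membership is the position and the symbol of each gene.

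The tissue was gastrocnemius, a muscle of the calf, from B6CASTF1/J females at 36 days of age, with 1 small RNA library of total RNA for each of biological replicates 1 and 2. B6CASTF1/J animals are the F1 offspring of a cross between the C57BL/6 and CAST/EiJ strains. No treatment, transgene or deletion is named in the labels, and there was no other group, so no conditions could be compared. The labels describe different females, but both records carry the same donor identifier, and nothing else says how the animals were related. Every SD therefore measures the spread between these 2 libraries, which may be partly technical. The counts were not divided by parental allele.

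In the Dlk1-Dio3 region the protein-coding genes Dlk1, Rtl1 and Dio3 are active on the chromosome inherited from the father, and the long non-coding RNAs Meg3 and Rian, with the microRNAs and small nucleolar RNAs along them, on the one inherited from the mother. A methylated control region between Dlk1 and Meg3 sets this pattern. In muscle the region is known from the callipyge sheep, in which a mutation there gives overgrown hindquarters, and many of its microRNAs are abundant in embryonic tissue and in the brain. A microRNA is cut from a hairpin whose arms, named 5p and 3p, can each give a mature strand of about the length of the reads. The seed, bases 2 to 8 of that strand, does most of the pairing with target messages.

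All 8 hairpins are on the plus strand (mm10, GENCODE M21) and span 54645 bases from the first to the last. Mir770 (12, 109563692 to 109563785) is inside Meg3. Of the 11 annotated Meg3 transcripts, 1 holds it in an exon and 3 in an intron. Mir673 (109571990 to 109572080) begins 264 bases past the annotated end of Meg3, and Mir493 (109580233 to 109580315) begins 8507 bases past it. Neither overlaps another annotated gene. Mir337 (109585789 to 109585885), Mir540 (109586080 to 109586146) and Mir665 (109586314 to 109586407) stand close together, with 194 and 167 bases between them. They end 3308, 3047 and 2786 bases before Rtl1, a retrotransposon-derived gene on the minus strand, whose 3′ end faces them. Mir337 also covers the annotated microRNA gene Mir3544 on the minus strand. Mir341 (109611500 to 109611595) and Mir370 (109618258 to 109618336) lie inside Rian, in an intron of 2 of its 20 annotated transcripts and in no exon.

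The mature arms are shown here because the counts are per hairpin and cannot say which arm was read, and because the seeds tell which members could share targets. All 16 were matched by symbol in RefSeq (GRCm38.p6), whose hairpin coordinates equal those of GENCODE M21 for all 8 genes. The seed is in capitals.
mmu-miR-770-5p: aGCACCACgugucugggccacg
mmu-miR-770-3p: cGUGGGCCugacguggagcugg
mmu-miR-673-5p: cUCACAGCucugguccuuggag
mmu-miR-673-3p: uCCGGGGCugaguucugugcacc
mmu-miR-493-5p: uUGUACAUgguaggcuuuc
mmu-miR-493-3p: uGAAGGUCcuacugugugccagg
mmu-miR-337-5p: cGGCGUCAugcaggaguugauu
mmu-miR-337-3p: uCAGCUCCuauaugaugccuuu
mmu-miR-540-5p: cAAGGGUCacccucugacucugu
mmu-miR-540-3p: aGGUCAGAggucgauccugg
mmu-miR-665-5p: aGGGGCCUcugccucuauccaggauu
mmu-miR-665-3p: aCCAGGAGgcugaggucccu
mmu-miR-341-5p: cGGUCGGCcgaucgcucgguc
mmu-miR-341-3p: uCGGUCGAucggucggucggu
mmu-miR-370-5p: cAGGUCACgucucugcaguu
mmu-miR-370-3p: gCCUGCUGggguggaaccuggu

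No seed occurred in more than 1 of the 8 genes, so the 16 arms carry 16 distinct seeds. Of the 16 arms, 3 (18.8%) share a seed with a mature strand of some other gene, against 32.0% of all 1738 mature strands in RefSeq. The only detected gene among those partners was Mir1193, a member of the Mir379 to Mir410 cluster in the same imprinted region. Its 3p strand has the seed of miR-370-5p.
mmu-miR-1193-3p: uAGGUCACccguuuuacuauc

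Mir1193 had 472 reads in replicate 1 and 535 in replicate 2, against 38 and 50 for Mir370. The other partners, Mir6985 for miR-673-5p and Mir6915 for miR-540-3p, had 0 reads in both libraries.

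All 8 microRNAs were detected, that is, had at least 10 reads in both libraries, as did 273 of the 2202 genes. Together they had 3806 of the 1593787 reads assigned to microRNA genes in replicate 1, or 0.239% (exact 95% interval 0.231 to 0.247). In replicate 2 they had 6020 of 2078101 reads, or 0.290% (0.282 to 0.297). The mean share was 0.264% ± 0.0360 (SD, n = 2). Intervals cover counting error only, since copies made by PCR cannot be told from separate molecules. Reads that matched several places, 75.4% and 77.6% of all reads, are in no gene's count. In bulk tissue, fewer cells that make a microRNA and less of it in each cell cannot be told apart.

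A few microRNAs of the set held most of its reads. Mir337 had 2430 reads in replicate 1 and 3837 in replicate 2, which is 63.8% and 63.7% of the reads of all 8. Its levels were 1525 and 1846 CPM (counts per 1000000 gene-assigned reads), and it ranked 58th and 45th among the 2202 genes. Mir337 was the highest of the 8 in both libraries. Its hairpin is shown as the source of most of these reads, with the mature arms in capitals.
Mir337 hairpin: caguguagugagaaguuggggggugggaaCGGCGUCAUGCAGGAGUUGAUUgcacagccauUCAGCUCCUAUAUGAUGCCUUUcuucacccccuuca

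Mir493, whose product is known to repress the receptor for insulin-like growth factor 1 in tumour cells, came second with 507 and 1006 reads, or 318 and 484 CPM. It ranked 100th and 90th of all genes. On the log2(CPM + 1) scale the level of Mir337 was above that of Mir493 by 2.26 in replicate 1 and by 1.93 in replicate 2. Mir493 was in turn above the next gene by 0.89 and 1.40, and both gaps exceeded the SD of either gene. The 5p arm of Mir493 is the shortest of the 16 at 19 bases.
Mir493 hairpin: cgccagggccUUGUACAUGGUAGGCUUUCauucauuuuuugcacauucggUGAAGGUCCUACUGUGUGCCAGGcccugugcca

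A middle group was formed by Mir341, Mir673 and Mir540. Mir341 had 273 and 381 reads, or 171 and 183 CPM. Mir673 had 238 and 372 reads, or 149 and 179 CPM. Mir540 had 231 and 301 reads, or 145 CPM in both libraries. Their order was the same in both libraries. On the log2(CPM + 1) scale Mir341 was above Mir673 by 0.20 in replicate 1 and 0.03 in replicate 2, a mean gap of 0.12. Mir673 was above Mir540 by 0.04 and 0.30, a mean gap of 0.17. Both mean gaps were below the larger SD of the pair (0.18), although 1 library of each pair had a gap above it, so a difference beyond the spread was not shown.

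Mir370, Mir665 and Mir770 were lowest. Mir370, whose 3p product is known as a regulator of the fatty acid oxidation gene Cpt1a in liver cells, had 38 and 50 reads, or 23.8 and 24.1 CPM. Mir665 had 41 and 45 reads, or 25.7 and 21.7 CPM. Mir770 had 48 reads in replicate 1 and 28 in replicate 2, or 30.1 and 13.5 CPM, so it was the highest of these genes in replicate 1 and the lowest in replicate 2. Their order was not the same in both libraries. Mir540 stood above each of them in both libraries, by 2.23 or more on the log2(CPM + 1) scale.

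**Figure D1:**
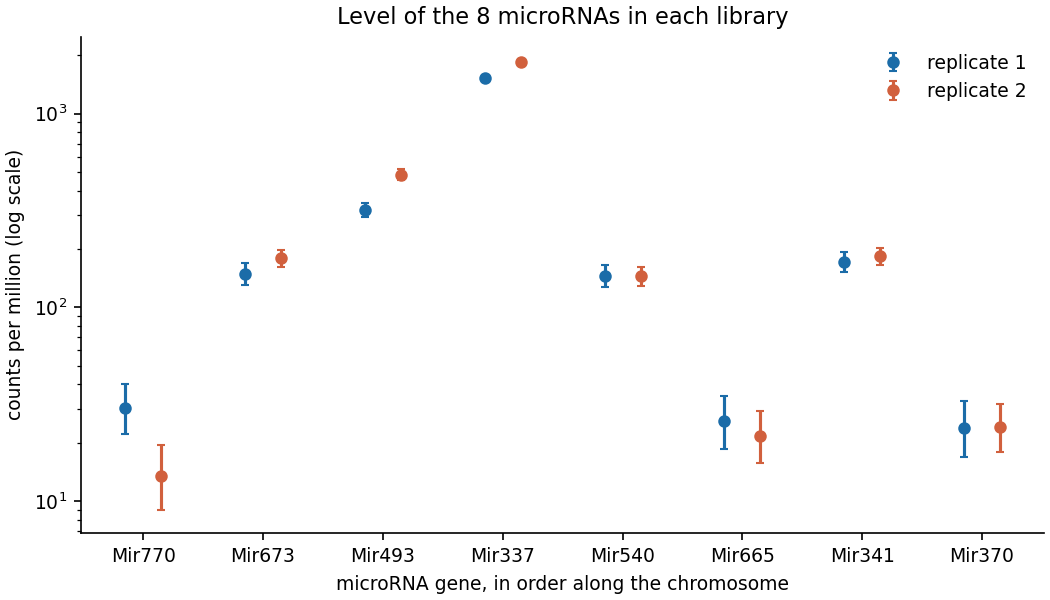
Level of each of the 8 microRNAs in CPM (log axis) in replicate 1 and replicate 2, in order along the chromosome. Points are single libraries and bars are exact 95% counting intervals; Mir337 is highest in both, and Mir770 is the gene whose libraries lie farthest apart.

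Neighbours in the genome differed widely in count. Mir337, Mir540 and Mir665 lie within 619 bases, yet Mir337 had 10.5 times the reads of Mir540 in replicate 1 and 12.7 times in replicate 2. It had 59.3 and 85.3 times those of Mir665. In Rian, Mir341 had 7.18 and 7.62 times the reads of Mir370, which lies 6662 bases further on. These counts do not compare amounts of the microRNAs themselves, because adapter ligation favours some sequences over others and multiply matched reads are uncounted. Stretches of 20 bases of the Mir665 hairpin also occur in Gm5554, a processed pseudogene on chromosome 5. They overlap and together cover bases 22 to 42 of the hairpin, within its 5p arm, so reads from there may have been left uncounted. For the 7 other hairpins no such stretch was found in any GENCODE M21 transcript outside the locus. The rest of the genome was not searched.

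The interval from Mir770 to Mir370 holds 20 microRNA genes within the chosen limits: these 8, the 7 listed genes of the Rtl1-antisense block, and 5 others. The 5 others are Mir3544, Mir3070a, Mir3070b, Mir1188 and Gm23912. They had 4 reads together in replicate 1 and 14 in replicate 2, and none reached 10 reads in both.

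Among 66 microRNA genes of the region, from Mir1906-1 to Mir3072, Mir337 had the 7th highest mean level. The 8 genes held 4.09% of the reads of the 3 lists of the region in replicate 1 and 4.62% in replicate 2. The Rtl1-antisense block, with Mir127 (26922 and 44342 reads) and Mir434 (4111 and 4663) highest, held 2.10% and 2.50% of all gene-assigned reads, and 5 of its 7 members were detected. The cluster from Mir379 to Mir410, with Mir411 (26999 and 29307 reads) and Mir379 (10988 and 16664) highest, held 3.49% and 3.48%, and 32 of 40 members were detected. Its list of 40 includes Mir3072, which lies past Mir410, and Mir496b, which is not among those 66 genes. Neither was detected. The median level of the 8 genes was 147 and 162 CPM. The medians were 484 and 520 CPM over the 7 Rtl1-antisense genes and 88.5 and 92.4 CPM over the 40 genes of the Mir379 to Mir410 cluster, each including genes with no reads.

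**Figure D2:**
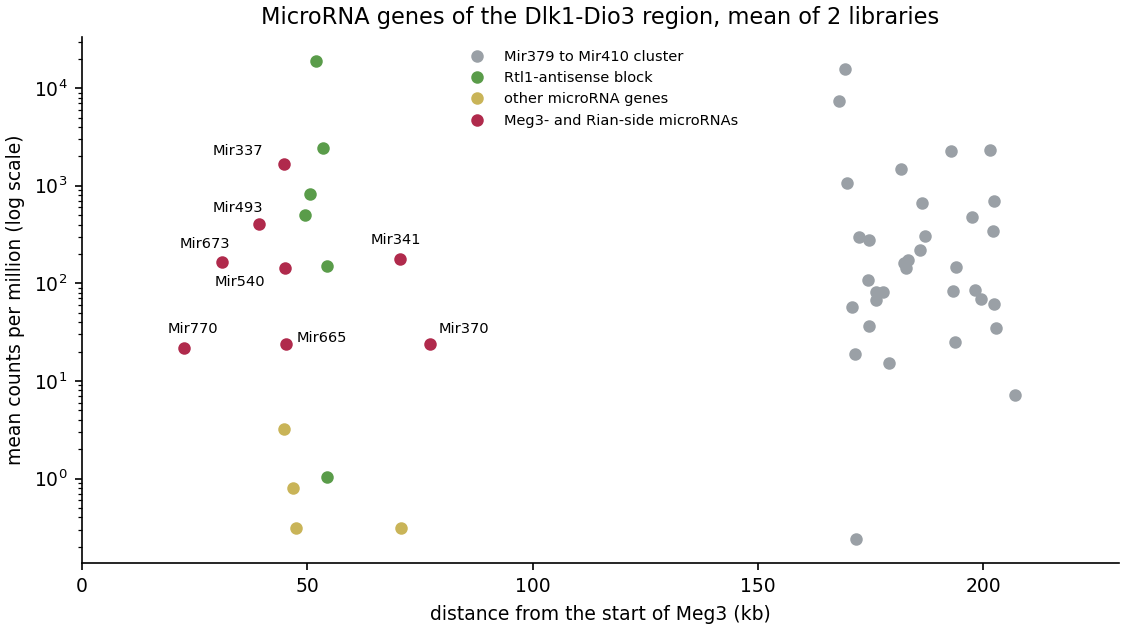
Mean level in CPM (log axis, mean of 2 libraries) of each microRNA gene from Mir1906-1 to Mir3072 in the Dlk1-Dio3 region. The horizontal axis is the distance from the annotated start of Meg3 in kb. Genes with no reads are not drawn. The 8 named genes lie between 22.7 and 77.3 kb, and Mir337 is the highest of them, below Mir127 and Mir434 of the Rtl1-antisense block.

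The libraries were then compared gene by gene. For each detected gene a two-sided exact binomial test compared how its reads divided between the libraries with the division that their TMM-scaled sizes would give. TMM is a scaling that takes most genes as unchanged. The test compares these 2 libraries and holds counting error only. It called 63.0% of the 273 genes, 33.3% as higher in replicate 2 and 29.7% as lower, at a Benjamini-Hochberg adjusted p under 0.05. Of the 8 microRNAs it called 4, with 3 higher and 1 lower in replicate 2, a count near that background. With libraries scaled by the other microRNAs of the region, the calls over all genes turned from 91 higher and 81 lower to 67 higher and 108 lower, since that scaling moves the median log2 ratio of all genes from 0.02 to -0.15.

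In replicate 2, Mir493 was 1.59-fold above its level in replicate 1 (counting interval at 95%, 1.43 to 1.78, exact binomial test, adjusted p = 1.09e-17). Mir337 was 1.27-fold higher (1.21 to 1.34, adjusted p = 1.11e-19 by the same exact test). Mir673 was 1.26-fold higher (1.06 to 1.48, adjusted p = 0.0119 by the exact test). The call of Mir673 ended when libraries were scaled by the other microRNAs of the region, with a fold of 1.12 (0.951 to 1.32). It also ended with no read minimum, with an adjusted p of 0.108.

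Mir770, the microRNA inside Meg3, was 2.13-fold lower in replicate 2 (1.31 to 3.53, exact binomial test, adjusted p = 0.00243) on 48 and 28 reads. It was the only one of the 8 called lower, and its log2 ratio of -1.09 ranked 28th in size among the 273 genes tested. Mir770 also has the most GC-rich hairpin of the set, shown here with its arms in capitals.
Mir770 hairpin: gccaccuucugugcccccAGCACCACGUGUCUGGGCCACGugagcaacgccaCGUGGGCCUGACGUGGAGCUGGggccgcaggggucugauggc

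Mir540, Mir665, Mir341 and Mir370 did not pass the test. Their folds of replicate 2 over replicate 1 were 1.05 (0.879 to 1.25), 0.882 (0.565 to 1.38), 1.12 (0.957 to 1.31) and 1.06 (0.680 to 1.66). For Mir665 and Mir370 the intervals span from well below to well above 1, so at 38 to 50 reads a difference of the size seen for Mir337 was not detectable. Mir540 and Mir341, with more reads, had narrower intervals.

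The median log2 ratio of the 8 was 0.12, from -1.09 to 0.67, beside a median of 0.02 over all 273 genes. The median size of the ratio regardless of sign was 0.26 for the 8 and 0.36 for all. The median was -0.11 for the 5 detected Rtl1-antisense genes (2 higher, 2 lower and 1 not called) and 0.07 for the 32 detected genes from Mir379 to Mir410 (12 higher, 5 lower and 15 not called). With scaling by the other microRNAs of the region the median of the 8 was -0.04.

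When edgeR's exact test was run at the common dispersion of the 2 libraries, which corresponds to a coefficient of variation of 0.335, it called none of the 8, and none had an unadjusted p under 0.05. Of all 273 genes it called 1.47%, and 6.96% had an unadjusted p under 0.05. That dispersion was estimated from these same libraries and includes their difference. All adjusted p-values of the 8 were 1 with this edgeR test.

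**Figure D3:**
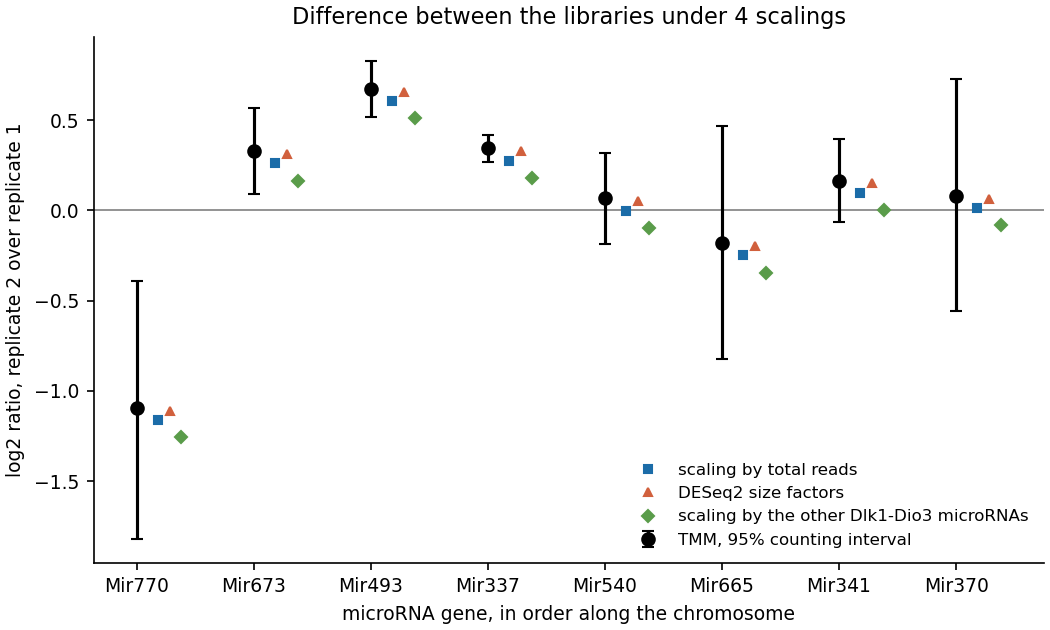
Log2 ratio of replicate 2 over replicate 1 for each of the 8 microRNAs, with TMM scaling (black, bars are 95% counting intervals) and with 3 other scalings (coloured symbols). Mir493, Mir337 and Mir673 stay above 0 and Mir770 stays below 0 under the 4 scalings drawn, and the ratios of Mir540 and Mir370 change sign with the scaling.

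**Figure D4:**
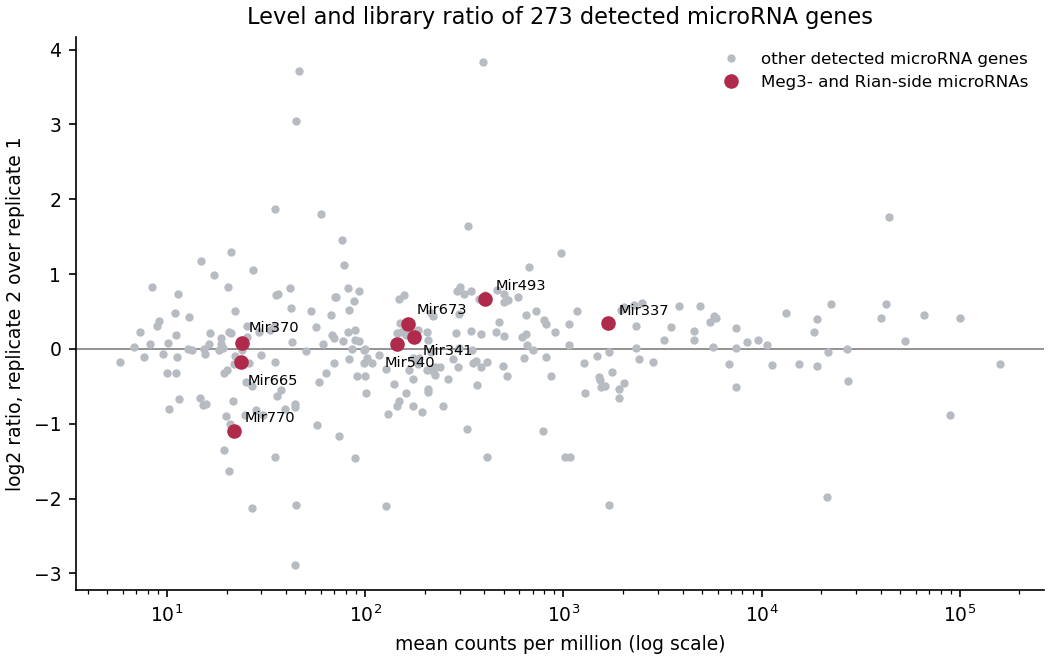
Log2 ratio of replicate 2 over replicate 1 against mean CPM (log axis) for the 273 detected microRNA genes, with the 8 Meg3- and Rian-side microRNAs in red. The 8 lie within the cloud of other genes, with Mir770 at -1.09 and Mir493 at 0.67 as their lowest and highest ratios.

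The ratio of reads between 2 microRNAs in the same library does not depend on scaling. Of the 28 pairs among the 8 genes, 12 had a ratio that differed between the libraries with a 95% counting interval that left out 1, with no adjustment for the number of pairs. Mir770 took part in 6 of these pairs and Mir493 in 6, the pair of both included. Mir493 had 35.9 times the reads of Mir770 in replicate 2 and 10.6 times in replicate 1, a change of 3.40-fold (2.06 to 5.70). Against Mir337, 5473 bases away, the ratio of Mir493 was 1.26-fold higher in replicate 2 (1.12 to 1.42). Mir673 and Mir337 kept nearly the same ratio, with 10.2 and 10.3 reads of Mir337 for each read of Mir673, a change of 0.990-fold (0.832 to 1.18). The ratio of Mir341 to Mir370, both in Rian, changed by 1.06-fold (0.657 to 1.70), an interval that also holds the change seen between Mir493 and Mir337. The median change over the 28 pairs was 0.35 on the log2 scale. Pairs of other genes were not computed, so neither this median nor the count of 12 sets the 8 genes apart. Among single genes, the exact binomial test called 63.0% of the 273.

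Strand mattered for Mir337 alone among the 8. With strand disregarded it had 0 reads in both libraries. Mir3544 is annotated within it on the other strand, and how reads over both genes were counted is not given in the sources used here. The 7 other genes had the same counts with and without strand. The 8 genes then held 0.137% of gene-assigned reads in place of 0.264%.

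The hairpins of the 8 genes had a median GC content of 57.5%, from 52.6% for Mir337 to 70.2% for Mir770, beside a median of 51.7% over the 1005 hairpins in RefSeq. GC content at or above that of Mir770 was found in 2.49% of them. The predicted folding energy (RNAfold) had a median of -0.52 kcal/mol per base for the 8 and -0.41 for all hairpins. Mir770 at -0.62 and Mir540 at -0.61 had the lowest values of the set, and Mir341 at -0.44 the highest. All 8 lay below the median of all hairpins. Mir665 with 53.2% and Mir770 with 70.2% GC were both among the genes of lowest level. A relation of GC content to level was not tested.

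Mir341, a microRNA known from rodents, has a repetitive hairpin, which is shown for that reason with its arms in capitals.
Mir341 hairpin: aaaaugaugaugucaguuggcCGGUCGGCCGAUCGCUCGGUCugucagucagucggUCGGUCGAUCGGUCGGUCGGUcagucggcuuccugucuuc

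The motif CGGUC, searched on the strand of the hairpin and with overlapping matches counted, occurred 7 times in it. No other RefSeq hairpin had as many, and 2.69% of hairpins had it at least once. Of the 6-base words of the Mir341 hairpin, 41.8% occurred more than once within it, a share reached by 7 of the 1005 hairpins including its own. No 20-base stretch of it was found elsewhere in the transcripts searched.

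For each of the 8, the detected gene outside the set with the closest pair of levels was found by the Euclidean distance of log2(CPM + 1) over the 2 libraries. Mir493 was nearest to the leukocyte gene Mir150 (500 and 1028 reads, distance 0.037). Mir770 was nearest to Mir331 (45 and 28 reads, 0.090). Mir665 and Mir370 had the same nearest gene, Mir675 (39 and 48 reads), which is cut from the imprinted H19 RNA, at distances of 0.113 and 0.067. Mir341 was nearest to Mirlet7c-1 (0.099), Mir540 to Mir193a (0.105), Mir673 to Mir24-2 (0.112) and Mir337 to Mir196a-2 (0.272). None of these genes is in the lists of the Dlk1-Dio3 region. Likeness over 2 libraries is a description of level only. Reads that matched several places are uncounted, so levels of numbered copies such as Mirlet7c-1, Mir24-2 and Mir196a-2 may leave out shared reads. Likeness to those genes therefore does not show like amounts of the microRNAs.

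The tissue label was checked against marker microRNAs. All 9 listed skeletal muscle genes had reads and 7 were detected, together 2.21% of reads in replicate 1 and 6.98% in replicate 2, led by Mir206 with 32871 and 139295 reads. Of those 7, 4 were called higher in replicate 2, 0 lower and 3 not called. By ratio alone, 5 lay above 1 and 2 below, down to a log2 ratio of -0.73. Mir499, a microRNA inside a myosin heavy chain gene, had 86 and 1527 reads and was 14.3-fold higher in replicate 2 (11.5 to 17.9), the highest ratio of the 273 genes. It was also called by the edgeR test described above. The smooth muscle list had 191719 and 129972 reads, with both genes lower in replicate 2, and the erythroid list held 3.74% and 0.898%, also with both lower. The endothelial list held 8.86% and 11.3%, with 1 of 3 genes higher. The neural list held 0.0395% and 0.0693%, with 2 of 10 genes detected, both higher in replicate 2, and the 3 genes of Mir124a, Mir9-1 and Mir9-2 at 0 reads. These have identical copies, whose shared reads are uncounted, so 0 does not show absence. The same limit holds for the other markers listed as more than 1 gene. They are Mir1a and Mir133a of the muscle list, Mir128 and Mir129 (neural), Mir219a (glial) and Mir199a. Shares of the lists therefore do not rank the tissues by amount. The glial list held 0.152% and 0.0539%, with 1 of 3 genes detected, lower in replicate 2. The leukocyte list held 0.142% and 0.209%, with 2 of 4 genes higher and 2 lower. The fibroblast and mesenchymal list held 0.0652% and 0.0698%, with 1 of 4 genes higher, 1 lower and Mir199a-1 at 0, and the cartilage list of Mir140 and Mir455 held 0.203% and 0.148%, with both lower. The pancreas gene Mir375 was higher on 11 and 179 reads, the liver gene Mir122 did not pass on 321 and 347, and the heart gene Mir208a had 1 and 15. Their part in the differences of the 8 microRNAs was not tested.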

How the data were processed

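Raw counts of reads per microRNA gene were deposited for 2 libraries of 1 group, for mm10 and GENCODE M21 per the file headers in the deposited read-me text. For the aligner and counter, nothing is given in the sources used here. The column of same-strand counts was analysed, without its 4 summary rows. CPM was computed over gene-assigned reads, with a pseudocount of 1 on the log2 scale. Libraries held 1593787 and 2078101 such reads, and a count of 0 allows up to 3 counts (1.88 and 1.44 CPM). Scaling used TMM (edgeR 4.0.16, R 4.3.3) over genes with at least 10 reads in both libraries. Calls used the two-sided exact binomial test over all such genes with Benjamini-Hochberg adjustment. It was checked on simulated counts that held counting error only, so the check does not cover other variation between libraries. Fold intervals are exact, from the binomial share. Alternatives were total reads, DESeq2 1.42.0 size factors, the other microRNAs of the region or TMM without the most abundant gene as scaling, other read minimums and pseudocounts, counts without strand, and edgeR's exact test. Hairpins were folded with ViennaRNA 2.7.2. All 8 members were named, with the 2 highest genes of each regional list, the nearest gene to each member, detected genes sharing a seed and genes on the other strand. The other genes of the interval were named beyond that rule. The members and lists were chosen with earlier results of these data known.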

Additional observations from a re-analysis of the deposited data

Results flagged for a closer look

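Reads lay on the strand opposite to Mir337, where Mir3544 is annotated. There were 12 in replicate 2, more than the limit of 3 reads for a gene with none counted, and 1 in replicate 1. They made up 0.312% of the reads on both strands in replicate 2 (exact 95% interval 0.161 to 0.544) and 0.0411% in replicate 1 (0.00104 to 0.229). Mir337 was the only one of the 8 genes with reads on its opposite strand. The counts of Mir337 used in the comparisons leave these reads out, but the library totals hold them as reads of Mir3544.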

How the results depend on the processing

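The 4 calls among the 8 genes, 3 higher and 1 lower in replicate 2, became 0 in both directions under edgeR's exact test with the common dispersion, where 0 also had an unadjusted p under 0.05. That test called 4 of all genes in place of 172, of which 3 were higher and 1 lower. With at least 50 reads in both libraries, 5 of the 8 genes were left, the count of lower calls fell to 0 because Mir770 was no longer tested, and the median log2 ratio of the 5 was 0.30. The share of reads of the 8 genes moved from 0.264% to 0.137% without regard to strand, which takes out Mir337, and to 0.314% with the most abundant gene left out of the denominator. Leaving out either replicate gave shares of 0.239% to 0.290% and 8 detected genes each time. Without regard to strand, 7 of the 8 were tested, with a median of 0.07. Over the other settings, with all 8 tested, the median lay between -0.04 and 0.11. Of 60 alternative values for the folds of single genes, 54 kept their side of the threshold and 6 lost it: 4 with edgeR's test and 2 for Mir673, with the cause not tested. No paired analysis was possible because there is 1 group. Calls cannot be made with either library left out. At 28 to 50 reads a gene, depth limits Mir770, Mir665 and Mir370 most.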
